A study of Homo sapiens with 6 samples.

Results

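The collagen chains described here are the 44 genes of the deposited table, out of 58825 in all, whose symbol reads COL, a type number, A and a chain number, with nothing after it. They were chosen by symbol alone and no expression value entered the choice. They comprise 11 fibrillar chains, 6 basement membrane chains of collagen IV and 27 chains of all other classes, which include beaded filament, anchoring fibril, short-chain network, transmembrane and multiplexin collagens and the fibril-associated collagens with interrupted triple helices (FACITs). Poly(A) RNA was sequenced from HK-2 cells, an immortalized line of human proximal tubular epithelium, so every library comes from 1 line. There were 3 Control libraries, labelled untreated with no time given, and 3 libraries of cells given 25 μg/ml OX-LDL (oxidized low-density lipoprotein) for 48 h. Per the study's methods, HK-2 cells were kept in low-serum medium before OX-LDL was added. The study asked how lipid load acts on tubular cells in renal fibrosis, and collagen deposition is what defines fibrosis in tissue.

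A collagen is a triple helix of 3 chains, which may be copies of one chain or the products of several genes. Fibrillar collagens assemble into the rope-like fibrils of the interstitium, whereas collagen IV forms the sheet-like network of basement membranes, on which tubular epithelium rests. The chains are hydroxylated and folded in the endoplasmic reticulum, exported, trimmed and crosslinked outside the cell. In kidney fibrosis, interstitial fibroblasts are regarded as the main source of fibrillar collagen, and epithelial cells make much of their own basement membrane.

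Promoter sequence is shown for COL4A1 and COL4A2 and for COL5A1, which were among the chains higher with OX-LDL in the test described below. COL6A1 was also among them and its promoter is not shown. The results for COL4A2 and COL5A1 depended on single libraries. COL4A1 and COL4A2 encode the chains of the most widespread collagen IV and are transcribed away from each other on chromosome 13. Their RefSeq starts on GRCh38.p14 lie 126 bases apart, at chr13:110307158-110307283, and this interval had a GC content of 80.2%, 1 CCAAT box, 1 GC box and no TATAAA. GENCODE 29 extends the first exons of both genes into the interval, so a stretch of 30 bases around each box is given, read on the plus strand, which is the strand of COL4A2. COL5A1, a chain of collagen V, lies on the plus strand of chromosome 9, and the 221 bases before its first annotated exon are at chr9:134641553-134641773. Capitals mark CCAAT boxes and GC boxes (GGGCGG, or CCGCCC on the other strand), which do not overlap here.
COL4A1-COL4A2 CCAAT box stretch: gggccgagctccCCAATttgttggcgctgc
COL4A1-COL4A2 GC box stretch: ccggcggtgcgcGGGCGGcgcctcaaaggg
COL5A1 upstream: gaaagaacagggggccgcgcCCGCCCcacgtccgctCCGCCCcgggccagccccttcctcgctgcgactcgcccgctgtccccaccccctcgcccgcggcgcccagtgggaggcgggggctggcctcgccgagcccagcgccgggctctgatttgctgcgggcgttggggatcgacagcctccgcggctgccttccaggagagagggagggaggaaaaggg
RefSeq gave promoters for 32 of the 44 chains, as 44 windows of the 250 bases before a start. Searched on both strands, CCAAT was in 27.3% of them and in 32% of all 35116 promoter windows of that length, GGGCGG was in 54.5% against 42.6%, and TATAAA was in 18.2% against 10.7%. These matches are letters in a window and were not tested as binding sites.

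The libraries held 62561347 to 76797607 deposited counts, at about 4 counts for each read pair of a gene. A gene at or below 12 counts (3 read pairs) in a library was taken as not detected there, a limit that covers counting error only. FPKM is fragments per kilobase of transcript, scaled by the authors for library size, and all levels below are deposited FPKM, which can be compared between genes. Log2 fold changes are OX-LDL over Control from edgeR, fitted to the counts by quasi-likelihood, and its p-values were adjusted (Benjamini-Hochberg) over the 19510 genes that averaged 0.1 FPKM or more. Libraries are named by group and replicate number, as in Control 2 or OX-LDL 1. The study's in vitro experiments were performed independently, but no label ties a library to a culture, so p-values measure the spread between these libraries. In bulk RNA, fewer expressing cells and less RNA per cell cannot be told apart.

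HK-2 cells expressed few collagen genes strongly. A count was present for 40 of the 44 chains in at least 1 library, 23 chains reached the 0.1 FPKM needed for the test, and 15 reached a mean of 1 FPKM. COL4A1, COL14A1, COL11A1, COL4A2 and COL18A1 together made up 73.1% to 79.4% of all collagen FPKM in a library. Summed over all 44 chains, collagen mRNA was 310, 286 and 270 FPKM in Control and 313, 297 and 325 FPKM in OX-LDL. The groups overlapped in this sum.

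**Figure D1:**
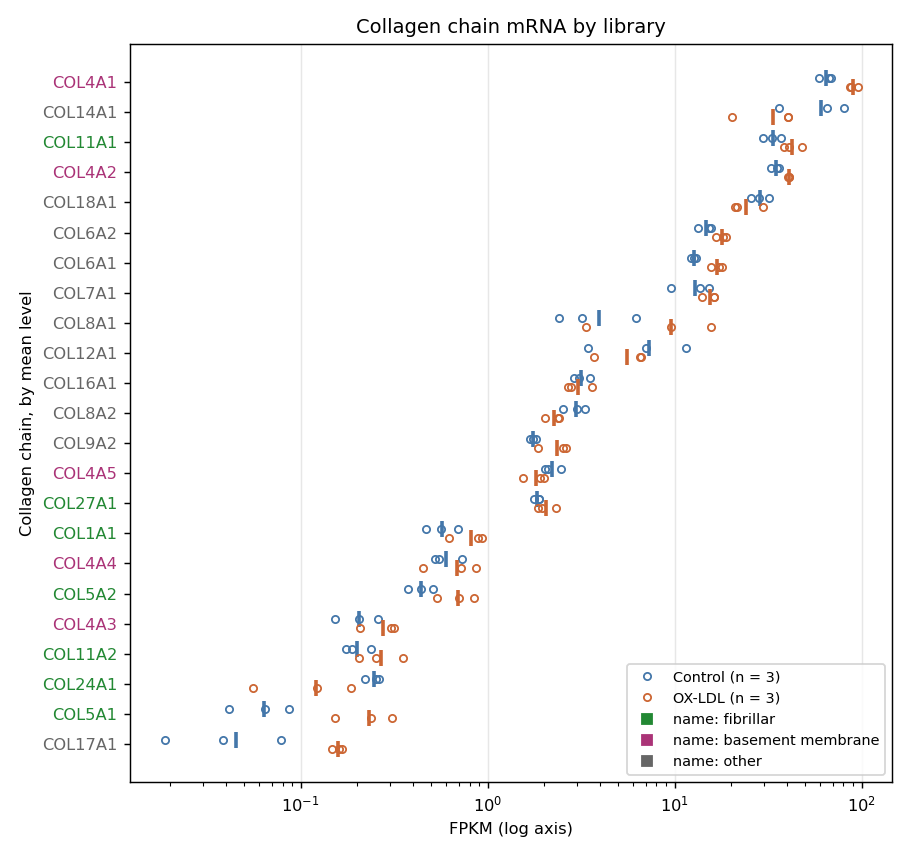
FPKM (log axis) of the 23 tested collagen chains in each of the 3 Control (blue) and 3 OX-LDL (orange) libraries, with short vertical bars at the group means and chain names coloured by class. Levels run from below 0.1 FPKM for COL17A1 and COL5A1 in Control to 95.5 FPKM for COL4A1 in OX-LDL 3. For 9 chains, among them COL4A1, COL4A2, COL6A1 and COL5A1, the OX-LDL points lie above all Control points.

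Of the 23 chains tested, 4 (17.4%) passed an adjusted p-value of 0.05 in edgeR, against 15.3% of all genes tested. All 4, namely COL4A1, COL4A2, COL6A1 and COL5A1, were higher with OX-LDL (17.4% of the chains, against 7.91% of all genes), and 0 were lower (against 7.42% of all genes). At an unadjusted p-value under 0.05 there were 11 chains, or 47.8%, against 30.4% of all genes. Of these 11, 10 were higher (43.5%, against 15.3% of all genes) and 1, COL8A2, was lower (4.35%, against 15.1%). DESeq2 called 1 chain lower, COL14A1, and limma called 0. By level alone, the 3 OX-LDL libraries lay above all 3 Control libraries for 9 chains (39.1%, against 16.8% of all genes) and below them for 3 (13%, against 20.5%). The median log2 fold change was 0.31 over the 23 chains and -0.004 over all genes tested, with 16 chains above 0 and 7 below. COL5A1 and COL17A1 passed the minimum of 0.1 FPKM only through their OX-LDL libraries, so their presence among the tested chains is not independent of their difference.

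**Figure D2:**
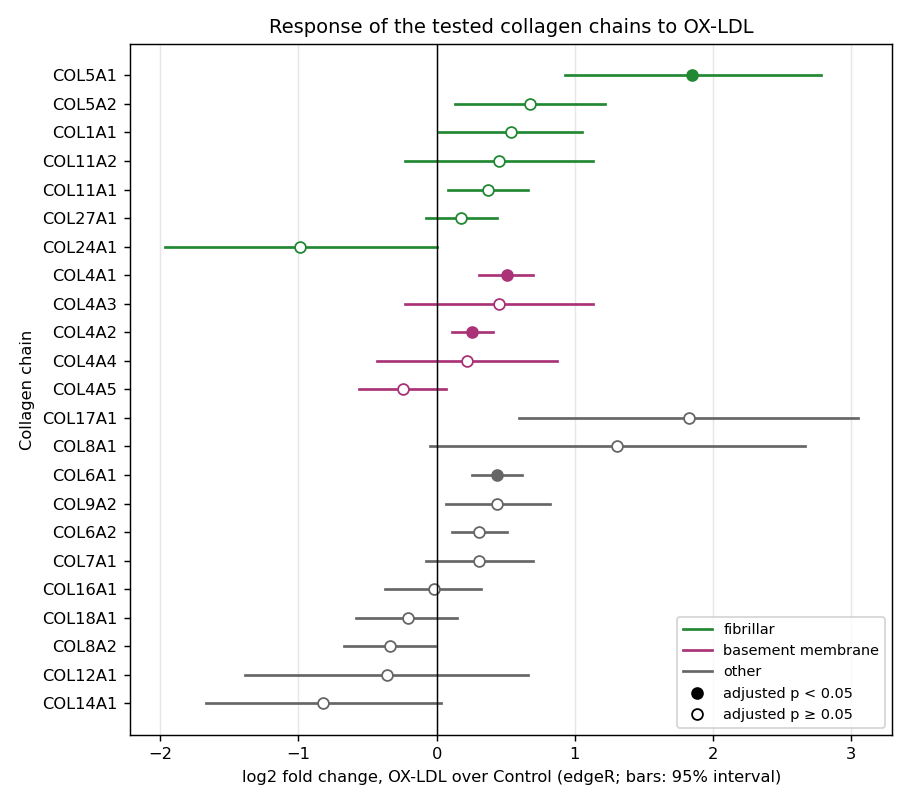
Log2 fold change (OX-LDL over Control, edgeR) of the 23 tested collagen chains by class, with bars for the 95% interval and filled points for an adjusted p-value under 0.05. The 4 filled points are COL5A1, COL4A1, COL4A2 and COL6A1, all to the right of 0, and the intervals of the low chains COL5A1 and COL17A1 are wider than those of COL4A1 and COL4A2.

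The number of chains called moved with single libraries. It was 1 when Control 2, OX-LDL 1 or OX-LDL 3 was left out, 2 without Control 3, 4 without Control 1 and 5 without OX-LDL 2. COL4A1 was called in all 6 of these fits. Over the whole table the same 6 fits called between 1161 and 2943 genes, where all 6 libraries gave 2991. Under the study's limits for a DEG (more than 2-fold up or less than 0.5-fold, at an unadjusted p-value under 0.05), 2 chains passed, COL5A1 and COL17A1, which is 8.7% against 6.36% of all genes. Since both entered the test only through their OX-LDL libraries, nothing is read from this share, and 0 chains passed these limits at a minimum of 1 FPKM. The limits kept out COL4A1, COL4A2 and COL6A1, whose levels are higher but whose fold changes are smaller.

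Of the 3 classes, the basement membrane chains differed most in summed level between the group means. Collagen IV mRNA, summed over its 6 chains, was 106, 95.3 and 107 FPKM in Control and 131, 131 and 139 FPKM in OX-LDL. There was no overlap between groups, and collagen IV made up 33.4% to 39.6% of collagen FPKM in Control and 41.9% to 44.1% in OX-LDL. COL4A1 alone made up most of the collagen IV sum. The shares also depend on COL14A1, which varied widely between libraries. It took 13.3% to 25.9% of collagen FPKM in Control and 6.84% to 12.9% in OX-LDL. These sums and shares carry no test. Of the 5 collagen IV chains tested, 2 rose and 0 fell, where 7.91% of all genes rose and 7.42% fell, and the median log2 fold change was 0.26.

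COL4A1 (ENSG00000187498), at 110148963 to 110307157 on the minus strand of chromosome 13 (GRCh38), had the highest mean level of all collagen mRNAs, although COL14A1 was above it in Control 1 and Control 2. Its level was 66.7, 59.2 and 68.8 FPKM in Control and 88.0, 86.9 and 95.5 FPKM in OX-LDL. Every OX-LDL library was well above every Control library. COL4A1 rose 1.42-fold (log2 fold change 0.51, standard error 0.08, 95% interval 0.31 to 0.70), at an adjusted p-value of 0.0117 in edgeR. In the alternative fits its adjusted p-value lay between 7.25e-05 and 0.0452, under 0.05 in 14 of 14.

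COL4A2 (ENSG00000134871), the partner chain on the plus strand from 110305812 to 110513209, was at 36.0, 32.9 and 35.4 FPKM in Control and at 40.7, 41.0 and 40.5 FPKM in OX-LDL. The groups did not overlap and the OX-LDL libraries were close together. COL4A2 rose by 0.26 on the log2 scale (standard error 0.06), at an adjusted p-value of 0.0396 in edgeR. With any 1 of the 6 libraries left out, the adjusted p-value was between 0.0559 and 0.108 and the call was lost, at log2 fold changes of 0.21 to 0.30. It was also lost with no minimum level, at 0.0692.

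Since each collagen IV molecule of this kind pairs COL4A1 chains with a COL4A2 chain, their ratio was also computed, after the values of both had been seen. The ratio of COL4A1 to COL4A2 FPKM was 1.85, 1.80 and 1.94 in Control and 2.16, 2.12 and 2.36 in OX-LDL. Ratios were computed in this way for 7 pairs of related chains, and in 4 of them the groups did not overlap. By level, 16.8% of all genes tested lay higher in OX-LDL without overlap and 20.5% lower. No such share was computed for ratios of other genes, so nothing is read from the 4. The COL4A1 to COL4A2 ratio was higher in every OX-LDL library, with an exact two-sided permutation p-value of 0.1, the smallest that 3 libraries against 3 can give. The deposited coordinates of both genes overlap at their starts and it is not stated whether strand was used in counting, so reads from the overlap could have been given to either. COL4A2-AS1, an antisense gene inside COL4A2, had 14 to 49 counts in a library, against 55590 to 71818 for COL4A2.

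COL4A5, COL4A4 and COL4A3 encode the chains of the specialized collagen IV of the glomerular basement membrane and some tubular ones, and their loss causes Alport syndrome. COL4A5 was at 2.03, 2.47 and 2.11 FPKM in Control and 1.54, 1.91 and 2.00 FPKM in OX-LDL, below Control in all 3 libraries. Its log2 fold change was -0.24 at an adjusted p-value of 0.276 in edgeR. COL4A4 and COL4A3, which share a head-to-head locus on chromosome 2, stayed under 1 FPKM with overlapping groups, and the ratio of COL4A4 to COL4A3 also overlapped (2.53 to 3.61 in Control, 1.43 to 3.48 in OX-LDL). COL4A3 also overlaps an antisense gene, AC097662, that had 38 to 148 counts, beside 113 to 254 for COL4A3. COL4A6, head to head with COL4A5 on chromosome X, was not detected, with at most 12 counts in any library.

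**Figure D3:**
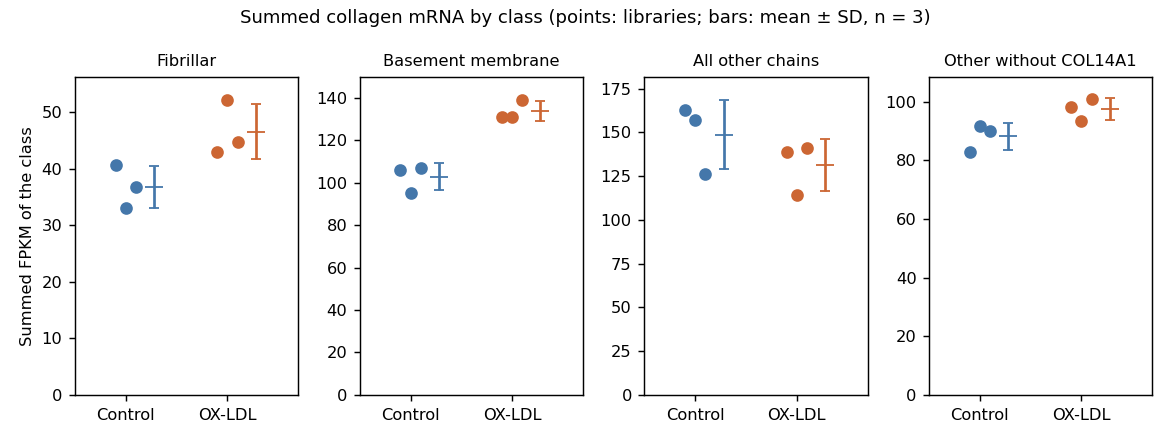
Summed FPKM of the fibrillar chains, the basement membrane chains, all other chains, and the other chains without COL14A1, for each library (points) with mean ± SD (bars, n = 3 per group). Basement membrane chains were at 103 ± 6.4 (Control) and 134 ± 4.57 (OX-LDL) FPKM without overlap, and the sum of the other chains overlapped between groups with COL14A1 but not without it, a split made after the values had been seen.

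The fibrillar chains summed to 40.6, 33.1 and 36.8 FPKM in Control and 42.9, 52.1 and 44.7 FPKM in OX-LDL, without overlap, and COL11A1 alone made up most of this. Of the 7 fibrillar chains tested, 1 (COL5A1) rose and 0 fell, beside shares of 7.91% and 7.42% over all genes. At an unadjusted p-value under 0.05, 4 were higher and 0 lower, beside 15.3% and 15.1%. The median log2 fold change was 0.45, with 6 chains above 0 and 1 below, and it was 0.28 over the 2 chains that reached a minimum of 1 FPKM. COL5A1, which entered the test only through its OX-LDL libraries, is counted in the 4, in the 6 and in the median of 0.45.

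COL11A1 (ENSG00000060718, minus strand of chromosome 1, 102876467 to 103108872) encodes a chain of collagen XI, known from the core of cartilage fibrils. It was at 37.3, 29.7 and 33.4 FPKM in Control and 38.5, 47.9 and 40.7 FPKM in OX-LDL. The groups did not overlap, but OX-LDL 1 lay only just above Control 1. The log2 fold change of 0.37 (standard error 0.12) had an adjusted p-value of 0.0916 in edgeR, so COL11A1 did not pass. Its partner COL11A2 was at 0.174 to 0.353 FPKM, with overlapping groups, and the ratio of COL11A1 to COL11A2 overlapped too (156 to 177 in Control, 109 to 234 in OX-LDL). COL2A1, the other gene that supplies collagen XI, had 4 counts in OX-LDL 1 and 0 elsewhere.

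Collagen I, the main fibril of scar tissue, was low on the side of COL1A1 and not detected on that of COL1A2. COL1A1 (ENSG00000108821, chromosome 17) had 0.467, 0.561 and 0.691 FPKM in Control and 0.883, 0.932 and 0.624 FPKM in OX-LDL. The groups overlapped, because OX-LDL 3 lay below Control 3, and the log2 fold change of 0.54 (standard error 0.22) had an adjusted p-value of 0.148 in edgeR. COL1A1 passed in none of the 13 alternative fits, at adjusted p-values of 0.0703 to 0.315. In HK-2 cells given OX-LDL, the study reports a rise of Col-1 by Western blotting and real-time PCR. It does not state which chain its PCR measured, and protein was not measured here. COL1A2, which supplies the remaining chain of ordinary collagen I, had 0 counts in 5 libraries and 4 in OX-LDL 1, so it was not detected. COL3A1, the homotrimeric fibrillar collagen of soft tissue and scar, had 11, 0 and 8 counts in Control and 4, 0 and 16 in OX-LDL, above the detection limit in 1 library.

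Collagen V nucleates and limits the width of collagen I fibrils. COL5A1 (ENSG00000130635, chromosome 9, 134641774 to 134844843) had 88, 42 and 60 counts in Control and 254, 157 and 244 in OX-LDL, or 0.0862, 0.0414 and 0.0645 FPKM against 0.307, 0.153 and 0.239 FPKM. All 3 OX-LDL libraries lay above all 3 Control libraries, at a low level in both groups. The 3.62-fold rise (log2 fold change 1.85, 95% interval 0.93 to 2.78) had an adjusted p-value of 0.0240 in edgeR. COL5A1 reached the minimum for the test only through its OX-LDL libraries, since its Control mean was 0.064 FPKM. Its place in the test is therefore not independent of its difference. The call was lost once Control 2, Control 3, OX-LDL 1 or OX-LDL 3 was left out, at adjusted p-values of 0.0685 to 0.0783, while the log2 fold change stayed between 1.61 and 2.15 in all 6 such fits. It was also lost in limma on log2(FPKM + 0.1), at 0.0837, and on log2(FPKM + 1), at 0.0958, scales that understate changes of low genes.

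COL5A2, the partner chain, was at 0.512, 0.440 and 0.376 FPKM in Control and 0.699, 0.537 and 0.844 FPKM in OX-LDL. The groups did not overlap, but COL5A2 did not pass (log2 fold change 0.68, adjusted p-value 0.0963 in edgeR). The ratio of COL5A2 to COL5A1 FPKM was 5.93, 10.6 and 5.83 in Control and 2.28, 3.50 and 3.53 in OX-LDL, without overlap, and was chosen for description after the values had been seen. COL5A3 had at most 4 counts in a library. COL27A1, a fibrillar chain of cartilage, was at 1.77, 1.88 and 1.89 FPKM in Control and 1.95, 2.33 and 1.85 FPKM in OX-LDL, overlapping, with a log2 fold change of 0.18. COL24A1, a minor fibrillar chain and the one tested with a log2 fold change below 0 (-0.99), was at 0.263, 0.252 and 0.222 FPKM in Control and 0.185, 0.0553 and 0.123 FPKM in OX-LDL, at an adjusted p-value of 0.165 in edgeR.

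Among the other classes, 1 of 11 chains tested rose, COL6A1 of collagen VI, and 0 fell, where 7.91% of all genes rose and 7.42% fell. COL6A1 (ENSG00000142156, chromosome 21, 45981737 to 46005050, plus strand) encodes a chain of the beaded filaments that link basement membranes to the interstitium. It was at 12.3, 12.7 and 13.1 FPKM in Control and 17.9, 15.6 and 17.2 FPKM in OX-LDL, well apart. COL6A1 rose 1.36-fold (log2 fold change 0.44, standard error 0.08), at an adjusted p-value of 0.0134 in edgeR. Its adjusted p-value missed 0.05 once Control 2 (0.0566), OX-LDL 1 (0.0520) or OX-LDL 3 (0.0594) was left out.

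COL6A2 (ENSG00000142173), which lies 93046 bases further along the same strand with 5 genes of the table between them, was at 13.4, 15.3 and 15.6 FPKM in Control and 18.9, 16.6 and 18.1 FPKM in OX-LDL. The groups did not overlap, and the log2 fold change of 0.31 (standard error 0.08) fell just short, at an adjusted p-value of 0.0514 in edgeR. It passed in 4 of 14 alternative fits, over which the adjusted p-value ranged from 0.0205 to 0.155, and it was 0.0449 without OX-LDL 2. The ratio of COL6A1 to COL6A2 FPKM was 0.914, 0.832 and 0.845 in Control and 0.947, 0.936 and 0.951 in OX-LDL, without overlap. The usual collagen VI molecule also holds the product of COL6A3, which had only 12, 10 and 0 counts in Control and 27, 27 and 39 in OX-LDL. COL6A5 was at 0 in every library and COL6A6 at 4 counts or fewer.

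The FACITs sit on the surface of fibrils, and their most abundant member varied widely between libraries. COL14A1 was at 80.3, 65.7 and 36.0 FPKM in Control and 40.3, 20.3 and 40.3 FPKM in OX-LDL. Control 3 lay below 2 of the OX-LDL libraries, so the groups overlapped, and the log2 fold change of -0.82 had a 95% interval of -1.67 to 0.03 and an adjusted p-value of 0.177 in edgeR. Over 14 alternative fits that p-value was 0.0475 (DESeq2) to 0.397. COL12A1, its closest relative, was at 11.5, 7.04 and 3.46 FPKM in Control and 6.52, 3.69 and 6.59 FPKM in OX-LDL, with a log2 fold change of -0.36 and an adjusted p-value of 0.63 in edgeR.

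Both FACITs ranked the Control libraries in the same order and were lowest, among OX-LDL libraries, in replicate 2. The ratio of COL14A1 to COL12A1 FPKM was 6.96, 9.34 and 10.4 in Control and 6.19, 5.51 and 6.11 in OX-LDL, so in OX-LDL each library held less COL14A1 per COL12A1 than any Control library. This ratio was also chosen after the values had been seen. COL14A1 alone took 25.9%, 23.0% and 13.3% of collagen FPKM in Control and 12.9%, 6.84% and 12.4% in OX-LDL. Without it, in a sum likewise formed once the values were known, the other chains were at 83.0, 91.7 and 90.1 FPKM in Control and 98.3, 93.6 and 101 FPKM in OX-LDL.

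**Figure D4:**
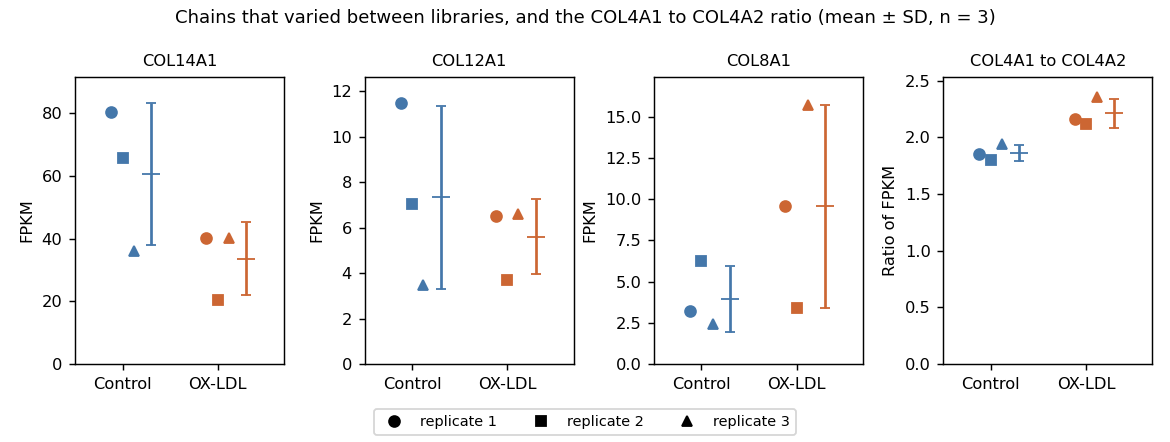
FPKM of COL14A1, COL12A1 and COL8A1, and the ratio of COL4A1 to COL4A2 FPKM, in each library (symbols mark the replicate number) with mean ± SD (n = 3 per group). COL14A1 runs from 20.3 to 80.3 FPKM and COL8A1 from 2.42 to 15.7 FPKM with overlapping groups, whereas the COL4A1 to COL4A2 ratio stays within 1.80 to 1.94 in Control and 2.12 to 2.36 in OX-LDL.

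COL8A1 and COL8A2 encode the short chains of collagen VIII, known from the hexagonal sheets of Descemet's membrane and from vessel walls. COL8A1 was at 3.20, 6.24 and 2.42 FPKM in Control and 9.60, 3.37 and 15.7 FPKM in OX-LDL. OX-LDL 2 lay among the Control libraries, and the log2 fold change of 1.31 had a 95% interval of -0.05 to 2.67 and an adjusted p-value of 0.178 in edgeR. Its unadjusted p-value of 0.0567 kept it just outside the DEG limits. With single libraries left out, the log2 fold change ran from 0.74 (without OX-LDL 3) to 1.79 (without Control 2), and the adjusted p-value from 0.0508 (without OX-LDL 2) to 0.455 (without OX-LDL 3). COL8A2 was at 2.54, 3.33 and 3.00 FPKM in Control and 2.39, 2.42 and 2.02 FPKM in OX-LDL, below Control in every library, at an adjusted p-value of 0.154 in edgeR. The ratio of COL8A1 to COL8A2 overlapped, at 0.807 to 1.87 in Control and 1.39 to 7.76 in OX-LDL.

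COL17A1, a transmembrane collagen of hemidesmosomes, had 49, 25 and 11 counts in Control and 86, 108 and 95 in OX-LDL. Control and OX-LDL did not overlap, at 0.0781, 0.0383 and 0.0187 FPKM against 0.161, 0.167 and 0.147 FPKM. Its log2 fold change of 1.83 (95% interval 0.60 to 3.05) missed the threshold at an adjusted p-value of 0.0580 in edgeR, and that p-value ranged from 0.00577 to 0.17 in 13 alternative fits, 3 of them under 0.05. Leaving out Control 1 gave 0.0306. COL17A1, at a mean of 0.102 FPKM over all libraries, and COL5A1, at 0.149 FPKM, were the tested chains nearest to the minimum of 0.1 FPKM. COL26A1 at 0.0470 FPKM and COL10A1 at 0.0427 FPKM were the nearest below it.

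The remaining chains with a mean of at least 1 FPKM did not pass. COL18A1, a multiplexin of basement membranes whose tail is released as endostatin, was at 25.5, 28.4 and 31.9 FPKM in Control and 21.0, 29.7 and 21.5 FPKM in OX-LDL, with overlapping groups and a log2 fold change of -0.21. It overlaps SLC19A1 on the opposite strand, which had 563 to 1057 counts beside 13174 to 22915 for COL18A1. COL7A1, the chain of the anchoring fibrils, was at 9.57, 13.6 and 15.2 FPKM in Control and 16.2, 16.2 and 14.1 FPKM in OX-LDL, again overlapping, with a log2 fold change of 0.31.

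COL9A2, a FACIT chain of cartilage, was at 1.69, 1.82 and 1.75 FPKM in Control and 2.61, 1.87 and 2.53 FPKM in OX-LDL, higher in every library. Its adjusted p-value was 0.113 in edgeR and 0.0316 without OX-LDL 2, in a range of 0.0316 to 0.279 over the alternatives. Both partners that make up collagen IX with it were scarce, since COL9A1 was at 0 in every library and COL9A3, which overlaps TCFL5, had at most 19 counts. COL16A1, another FACIT, was at 2.88, 3.08 and 3.51 FPKM in Control and 2.79, 3.63 and 2.68 FPKM in OX-LDL, with a log2 fold change of -0.02 and a 95% interval of -0.37 to 0.32.

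Of the 21 chains below the minimum for the test, 4 were at 0 in every library (COL9A1, COL6A5, COL23A1 and COL25A1). A further 7 had counts but never more than 12 in a library, so they were not detected at this depth. The other 10 went above 12 counts in at least 1 library, and the highest count was 40, for COL28A1 in OX-LDL 2. Several of these lie across expressed genes on the opposite strand, such as COL10A1 across NT5DC1 (3509 to 6333 counts) and COL19A1 across LMBRD1 (2702 to 4543 counts), so their few reads are uncertain.

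Most of the enzymes that modify collagen chains inside the cell rose. Of the 15 prolyl and lysyl hydroxylase genes and their partners, all tested, 9 rose and 0 fell, against 7.91% and 7.42% of all genes, and the median log2 fold change was 0.33, against -0.004. P4HA1, the catalytic subunit of prolyl 4-hydroxylase, was at 43.9, 38.7 and 39.7 FPKM in Control and 72.8, 74.8 and 77.2 FPKM in OX-LDL, a 1.88-fold rise (log2 fold change 0.91, adjusted p-value 0.00184 in edgeR). P4HB, its protein disulfide isomerase subunit, rose from 56.3, 53.0 and 54.7 FPKM to 85.1, 73.7 and 84.6 FPKM, with a log2 fold change of 0.60.

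P3H3, of the prolyl 3-hydroxylase family, rose from 7.32, 7.86 and 7.59 FPKM to 10.5, 10.1 and 10.8 FPKM (log2 fold change 0.50, adjusted p-value 0.00829 in edgeR). PLOD1, a lysyl hydroxylase, rose from 22.8, 22.6 and 22.9 FPKM to 30.5, 29.3 and 29.1 FPKM (log2 fold change 0.41, adjusted p-value also 0.00829). For none of these 4 enzymes did the groups overlap, and all 4 stayed under an adjusted p-value of 0.05 in 14 of 14 alternative fits. Of the other genes of the list that rose, P3H1 and PLOD2 lost their calls with no minimum level. Their adjusted p-values were then 0.0567 and 0.0594 in edgeR. Fits with single libraries left out are not given for those other genes. Many of these enzymes also act on proteins other than collagen, P4HB in particular. P3H2, of the same list, was lower without overlap, at 55.8, 56.9 and 50.6 FPKM in Control and 43.1, 46.6 and 45.3 FPKM in OX-LDL. It did not pass, at an adjusted p-value of 0.0698 in edgeR. COLGALT2 was also below Control in every OX-LDL library, at an adjusted p-value of 0.257 in edgeR.

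Genes for folding and export split. Of 10 tested, 3 rose and 2 fell, beside 7.91% and 7.42% of all genes, and the median log2 fold change was 0.04. CREB3L1, a transcription factor that activates collagen genes, rose from 5.32, 6.76 and 6.28 FPKM to 9.30, 9.24 and 8.55 FPKM, at an adjusted p-value of 0.0136 in edgeR, or 0.0543 without OX-LDL 1. FKBP7, a prolyl isomerase of the endoplasmic reticulum, rose from 2.15, 1.72 and 1.93 FPKM to 2.86, 2.84 and 2.80 FPKM (log2 fold change 0.58, adjusted p-value 0.0377 in edgeR). That call was lost with any 1 library left out, at 0.0516 to 0.119, and with no minimum level, at 0.0609. MIA2, whose products help load large cargo at exit sites of the endoplasmic reticulum, fell from 4.33, 4.59 and 4.79 FPKM to 2.87, 2.78 and 2.92 FPKM (log2 fold change -0.65, adjusted p-value 0.00426 in edgeR). KLHL12, a ubiquitin ligase adaptor for large transport coats, fell from 19.2, 21.3 and 21.5 FPKM to 15.0, 15.1 and 15.6 FPKM (log2 fold change -0.41, adjusted p-value 0.0143 in edgeR), and its adjusted p-value was 0.0549 to 0.0593 with Control 2, OX-LDL 1 or OX-LDL 3 left out.

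Outside the cell, 7 of the 11 propeptide-removal genes were tested, of which 2 rose and 1 fell (beside 7.91% and 7.42% of all genes), and the members moved in opposite directions within 1 protease family. BMP1, the main C-propeptidase, rose from 6.03, 5.93 and 6.10 FPKM to 8.36, 9.16 and 8.12 FPKM (log2 fold change 0.54, adjusted p-value 0.00798 in edgeR). Its relative TLL1 fell from 2.12, 2.15 and 2.24 FPKM to 0.723, 1.29 and 0.742 FPKM (log2 fold change -1.20, adjusted p-value 0.0205 in edgeR). With single libraries left out, its call held only without OX-LDL 2, and the adjusted p-value was otherwise 0.0559 to 0.0715. TLL2, another relative, rose from 0.159, 0.109 and 0.0724 FPKM to 0.449, 0.241 and 0.376 FPKM (adjusted p-value 0.0293 in edgeR). Its call was lost when Control 2, Control 3, OX-LDL 1 or OX-LDL 3 was left out, at 0.068 to 0.102, and in limma on both log2 FPKM scales, at 0.0634 and 0.0667.

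The 7 crosslinking genes were all tested, and 2 rose and 1 fell, beside 7.91% and 7.42% of all genes. TGM2, a transglutaminase, rose from 6.28, 5.27 and 6.89 FPKM to 16.6, 12.1 and 15.3 FPKM, a 2.44-fold rise (adjusted p-value 0.00433 in edgeR). LOX, lysyl oxidase, rose from 6.31, 6.10 and 6.72 FPKM to 13.6, 9.27 and 13.5 FPKM (log2 fold change 0.96, adjusted p-value 0.0109 in edgeR). LOXL2, the most abundant of the list and known to act on collagen IV, fell from 104, 106 and 92.9 FPKM to 73.9, 77.7 and 72.5 FPKM (log2 fold change -0.40, adjusted p-value 0.0154 in edgeR). Leaving out Control 2, OX-LDL 1 or OX-LDL 3 brought its adjusted p-value to 0.0591 to 0.0632.

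Of the 11 collagen receptor and uptake genes, 5 were tested, 1 rose and 1 fell, beside 7.91% and 7.42% of all genes. DDR1, a receptor tyrosine kinase of epithelia that binds collagen IV among others, rose from 4.10, 3.87 and 4.54 FPKM to 7.66, 6.69 and 6.30 FPKM (log2 fold change 0.75, adjusted p-value 0.00707 in edgeR). MRC2, which takes up collagen for degradation, fell from 12.4, 12.7 and 11.3 FPKM to 7.52, 9.82 and 7.41 FPKM (log2 fold change -0.52, adjusted p-value 0.0373 in edgeR). With single libraries left out it kept its call only without OX-LDL 2, and was otherwise at 0.0624 to 0.122.

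Among 12 collagen-binding matrix genes, 10 were tested, 1 rose and 1 fell, counts near the 7.91% and 7.42% of all genes. FN1, the most abundant of the list, was at 868, 863 and 841 FPKM in Control and 712, 741 and 748 FPKM in OX-LDL. It just missed a call (log2 fold change -0.19, adjusted p-value 0.0509 in edgeR). By real-time PCR, the study reports higher fibronectin mRNA in HK-2 cells given OX-LDL. SPARC, a matricellular protein that binds collagen, rose from 114, 118 and 133 FPKM to 170, 186 and 165 FPKM (log2 fold change 0.54, adjusted p-value 0.00919 in edgeR). TNXB, tenascin X, fell from 0.209, 0.255 and 0.220 FPKM to 0.0589, 0.0991 and 0.0746 FPKM (adjusted p-value 0.0123 in edgeR), a call lost without Control 2 (0.0520), without OX-LDL 3 (0.0535) and in limma on both log2 FPKM scales (0.0761 and 0.0799). TNXB reached the minimum for the test only through its Control libraries, since its OX-LDL mean was 0.0775 FPKM.

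**Figure D5:**
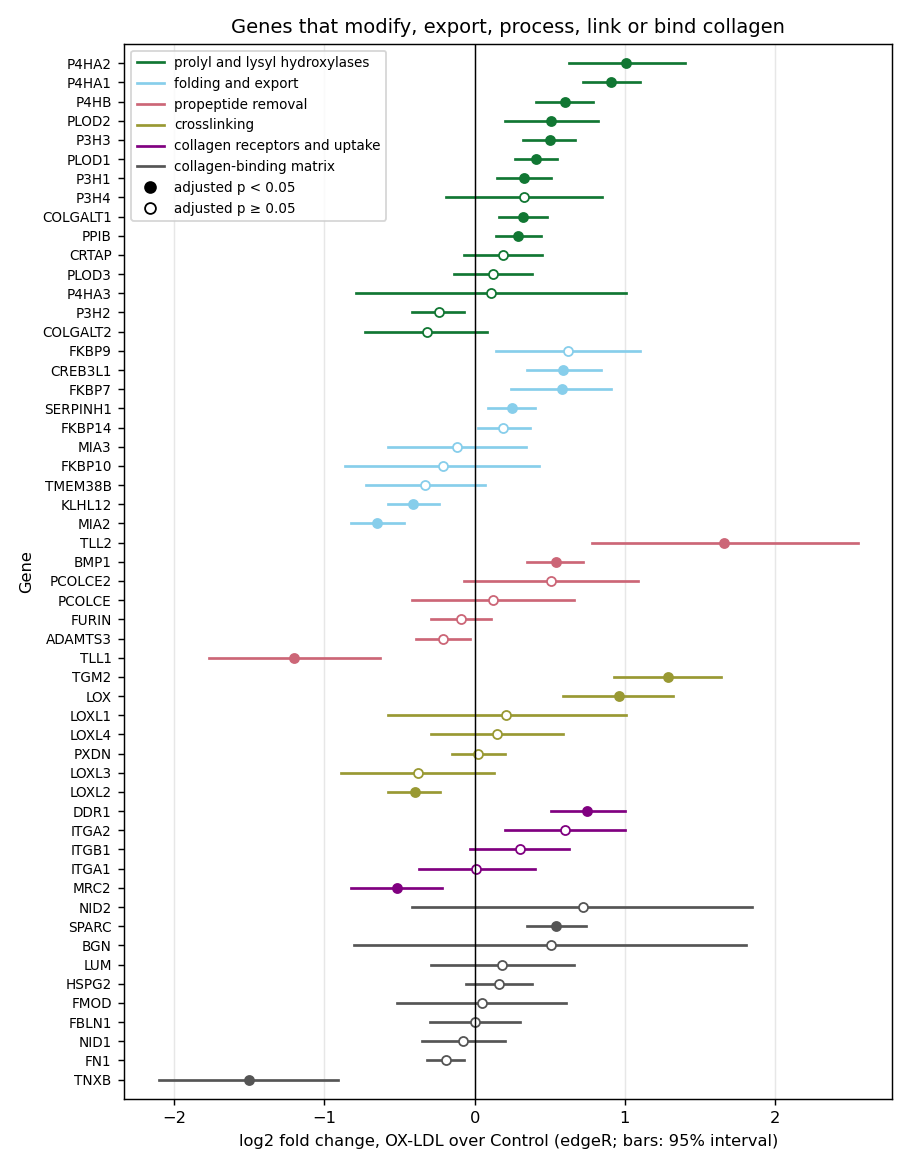
Log2 fold change (OX-LDL over Control, edgeR) of the tested genes of 6 lists of the collagen pathway, with bars for the 95% interval and filled points for an adjusted p-value under 0.05. Of the 15 hydroxylase genes at the top, 9 are filled and lie to the right of 0, whereas filled points lie on both sides of 0 in each of the other 5 lists.

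Marker genes were read beside these results to see which cell types the libraries could hold. Of 16 tubular epithelial markers, 10 were tested, of which 4 rose and 1 fell in edgeR, beside 7.91% and 7.42% of all genes. The summed level of the list was 198 to 227 FPKM in Control and 266 to 302 FPKM in OX-LDL. KRT19, an epithelial keratin, rose from 4.92, 5.81 and 5.68 FPKM to 24.9, 15.4 and 21.5 FPKM, and KRT8, another, from 37.9, 30.9 and 43.8 FPKM to 68.6, 59.7 and 67.9 FPKM. CDH6, a cadherin of renal tubule, rose from 12.7, 8.30 and 11.2 FPKM to 25.5, 28.8 and 26.7 FPKM. PAX8, a kidney lineage factor, fell from 49.2, 58.0 and 32.6 FPKM to 17.8, 24.2 and 16.3 FPKM, so the markers named did not move one way. The markers of mature proximal tubule LRP2, CUBN, AQP1, ANPEP, HNF4A and SLC34A1 were at or near 0, at most 0.142 FPKM. GGT1, of the same list, was at 3.13, 18.2 and 3.88 FPKM in Control and 15.8, 17.7 and 16.1 FPKM in OX-LDL. Its groups overlapped. CDH1, the gene of E-cadherin, was at 0.0276 to 0.144 FPKM. Of 10 fibroblast markers, 4 were tested and 0 passed in edgeR. Their sum was 10.3 to 12.3 FPKM in Control and 9.28 to 14.1 FPKM in OX-LDL, nearly all of it LUM, with TCF21 at 0.288 to 0.562 FPKM, ACTA2 at 0.153 to 0.258 FPKM, THY1 at 0.0399 to 0.405 FPKM, DCN and PDPN at 0, and PDGFRA, PDGFRB and POSTN at 0.0493 FPKM or less. FAP, too low for the test, had 0 counts in every Control library and 15, 15 and 22 counts in OX-LDL (at most 0.0348 FPKM). With no minimum level FAP passed at an adjusted p-value of 0.0353 in edgeR. It entered that fit only through its OX-LDL libraries, so nothing is read from this call. For α-SMA, which ACTA2 encodes, the study reports a rise in HK-2 cells given OX-LDL, by Western blotting and real-time PCR. The 6 endothelial markers summed to at most 0.122 FPKM, and the 6 macrophage markers to at most 0.614 FPKM, of which only CD14 reached the test. The part of the epithelial markers and of FAP in the collagen results was not tested.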

How the data were processed

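Poly(A) RNA of HK-2 cells was sequenced as read pairs from 3 Control and 3 OX-LDL libraries, grouped by their labels. The authors deposited 1 table of 58825 genes with estimated counts, which are whole numbers not scaled for library size, and FPKM, scaled by the authors per kilobase and for library size, with a count of 0 listed at 0.0001 FPKM and read here as 0. The submitters' processing notes name cutadapt 1.9, HISAT2 2.0.4, StringTie 1.3.4d, edgeR and DESeq2 and the build GRCh38. Library preparation marked the strand, but whether counting used it is not given in the sources used here. Genes at 4, 8 and 12 counts were 3.26, 2.95 and 2.13 times as frequent as at neighbouring counts, which was read as about 4 counts per read pair.

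Counts were tested with edgeR 4.0.16 in R 4.3.3 (TMM factors, glmQLFit and glmQLFTest with the group as the only term) over genes averaging 0.1 FPKM or more, with Benjamini-Hochberg adjustment over all of them. Standard errors and 95% intervals come from the same fit. Alternatives were DESeq2 1.42.0, RLE size factors, counts divided by 4, limma 3.58.1 on log2(FPKM + 0.1) and log2(FPKM + 1), a 1 FPKM minimum, none at all, a replicate block, and each library left out in turn. For the pathway genes these were added after the data had been seen. Scripts were tested on simulated data.

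Values are given in every library for each chain that averaged 1 FPKM or more, was called at 0.05 or passed the study's DEG limits, for COL1A1, COL1A2 and COL3A1, and for up to 4 genes of each pathway list with the smallest p-values among those called. The remaining chains, and genes overlapping a named chain, are given by ranges or examples. COL5A2, COL24A1, P3H2, COLGALT2, FN1, GGT1, CDH1 and the ratios were picked after their values had been seen. The members and lists were chosen with earlier results of these data known. Within each group, the chi-square between libraries was 14.33 to 24.78 per gene, where one library sampled again would give about 1, so none had been deposited more than once. Coordinates are those of the table, and 22 of the 44 chains have the same coordinates in GENCODE 29. Promoter sequences are from RefSeq (GRCh38.p14).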

Additional observations from a re-analysis of the deposited data

How the results depend on the processing

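Where edgeR with all libraries called 4 chains, DESeq2 called 10, and leaving out 1 library called between 1 and 5. Over all genes, edgeR with all libraries called 2991, DESeq2 4430, and leaving out 1 library 1161 to 2943. The other settings called 3 to 5 chains and 1636 to 3152 genes. Of the 2 chains past the DEG limits, 1 was left by limma on log2(FPKM + 0.1) and 0 by limma on log2(FPKM + 1) and by a minimum of 1 FPKM, which removes both chains from the test. Leaving out 1 library gave 2 to 3, and no minimum level gave 3, COL8A1 among them. The cause of the other differences was not tested. The log2 fold change of COL12A1 changed sign without Control 1, with a range of -0.70 to 0.14 when single libraries were left out, and that of COL16A1 changed sign without Control 3, OX-LDL 1 or OX-LDL 3, with a range of -0.17 to 0.06. Neither passed in any fit. The median log2 fold change of the basement membrane chains, 0.26, was 0.08 on the log2(FPKM + 1) scale, which understates changes of low genes, and 0.39 without Control 1. That of the fibrillar chains, 0.45, was 0.20 on that scale and 0.28 at a minimum of 1 FPKM, and that of the other chains, 0.31, was 0.15 in both and without Control 1. Of the log2 fold changes of single genes, recomputed gene by gene, 431 kept their direction and side of the threshold, 53 were no longer past it, 11 were newly past it and 4 changed sign.

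Libraries with the same replicate number did not deviate together (correlations of -0.041, -0.003 and 0.036 between deviations from the group means), so the numbers were not taken as pairs. With the replicate block, 3 chains were called (COL4A1, COL5A1 and COL6A1), 3 passed the DEG limits, and 1636 genes were called in all against 2991. Among the genes named, 3 calls were not made with the block, those of COL4A2 (0.0996), FKBP7 (0.0885) and MRC2 (0.0511). Depth limits the chains near 0.1 FPKM, where COL17A1 had as few as 11 counts in a library.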
